A study of Mus musculus with 15 samples.

Results

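The 35 genes described here are an endothelial set: genes known for their expression in the cells that line blood and lymphatic vessels, several of which are also used by blood cells. They were chosen by name and found by their Ensembl identifiers in the deposited counts, where all 35 were present among 48709 genes. RNA had been sequenced from 15 libraries of embryonic salivary glands of ICR mice, an outbred strain. The 4 groups were submandibular gland (SMG) epithelium at embryonic day 11.5 (E11.5, n = 4), SMG mesenchyme at E11.5 (n = 4), parotid gland (PG) epithelium at E12 (n = 3) and PG mesenchyme at E12 (n = 4). The labels name no mutation, transgene or treatment for any group, and do not say whether glands were pooled. They describe at least 3 independent biological replicates. The p-values here measure differences against the spread between libraries within groups, which the main fit estimated for each gene over all 4 groups. The gland changed together with the stage, so a difference between PG and SMG cannot be told apart from a difference between E12 and E11.5.

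Endothelial cells sense vascular endothelial growth factor (VEGF) through the receptors Kdr, Flt1 and Flt4, and angiopoietins through Tek, with Tie1 as a related receptor. They are joined by VE-cadherin, the product of Cdh5, and their identity is maintained by transcription factors of the ETS, SOXF and GATA families together with Tal1, Lyl1 and Lmo2, a group shared with blood-forming cells. In the early salivary gland the vessels run in the mesenchyme around the epithelial bud, while the epithelium is avascular.

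Library totals were 20561142 to 29552734 counts, and levels are given as CPM, read counts scaled to library size with TMM factors. Epithelial markers in mesenchyme stood at 0.225 to 0.575% of the epithelial mean in SMG, at 2.76 to 4.47% in 3 PG mesenchyme libraries and at 16.1% in PG mesenchyme replicate 1. PG epithelium replicate 2 stood apart from the other 2 PG epithelium libraries in most of the 35 genes, and the main results that rest on it are given with and without it. The median of 20 mesenchymal markers was 4.82% of the PG mesenchyme mean in that library, against 0.624 and 0.397% in replicates 1 and 3. In bulk tissue, fewer cells of a type and less RNA per cell cannot be told apart.

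Promoter windows from RefSeq (GRCm38.p6, from 250 bases before to 50 after a gene's start) were matched for 20 of the 35 genes, as 26 windows. Of these, 2 are shown because their genes followed Cdh5 closely across the 15 libraries (Pearson r of log2 CPM of 0.997 for Robo4 and 0.995 for Emcn, a description over libraries that share tissue layer), and both starts of Gata2 because that gene departed from Cdh5 (r = 0.467). All are on the plus strand, and capitals mark GGAAG or its reverse complement CTTCC. This string is longer than the GGAA core bound by ETS factors, and unmarked GGAA or TTCC occurs in every window shown.
Robo4, chr9:37401722-37402021: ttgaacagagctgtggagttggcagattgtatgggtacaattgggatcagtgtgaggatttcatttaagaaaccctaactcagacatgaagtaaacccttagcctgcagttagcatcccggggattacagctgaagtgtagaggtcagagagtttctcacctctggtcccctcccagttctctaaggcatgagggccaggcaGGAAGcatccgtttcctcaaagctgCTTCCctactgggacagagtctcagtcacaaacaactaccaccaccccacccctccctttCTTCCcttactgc
Emcn, chr3:137340828-137341127: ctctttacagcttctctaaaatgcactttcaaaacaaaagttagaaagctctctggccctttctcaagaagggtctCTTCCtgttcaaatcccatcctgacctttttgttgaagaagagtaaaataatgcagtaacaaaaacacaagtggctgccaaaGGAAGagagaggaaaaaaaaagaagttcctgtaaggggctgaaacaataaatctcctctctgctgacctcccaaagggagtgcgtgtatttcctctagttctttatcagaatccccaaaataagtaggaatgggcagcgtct
Gata2 first start, chr6:88193641-88193940: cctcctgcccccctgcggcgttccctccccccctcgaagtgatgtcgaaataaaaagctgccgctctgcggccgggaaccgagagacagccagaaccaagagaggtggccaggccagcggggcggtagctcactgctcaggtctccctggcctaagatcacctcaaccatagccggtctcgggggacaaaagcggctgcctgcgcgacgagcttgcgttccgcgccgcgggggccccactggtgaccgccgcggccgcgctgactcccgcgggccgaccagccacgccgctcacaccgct
Gata2 second start, chr6:88198414-88198713: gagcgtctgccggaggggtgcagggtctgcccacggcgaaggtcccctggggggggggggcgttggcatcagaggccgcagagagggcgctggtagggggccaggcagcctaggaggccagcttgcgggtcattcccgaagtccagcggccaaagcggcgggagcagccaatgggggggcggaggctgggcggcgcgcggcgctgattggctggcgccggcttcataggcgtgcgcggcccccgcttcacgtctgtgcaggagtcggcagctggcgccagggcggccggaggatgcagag
Robo4 held 3 matches to the marked string, Emcn held 2, and neither Gata2 window held any, though both held the shorter core. The marked string was present in 19 of the 26 windows, while 71.4% of all 32851 RefSeq promoter windows of that length held it. A GATA motif (AGATAA or TTATCT) was in 3 of the 26 windows against 11.2% of all, a SOX motif (ACAATG or CATTGT) in 1 against 12.6%, and an E-box of TAL1 (CAGATG or CATCTG) in 6 against 17.2%, each searched on both strands and counted even where matches of different motifs overlapped.

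In both glands nearly the whole set was higher in mesenchyme than in epithelium. In SMG, 34 of the 35 genes were lower in epithelium than in mesenchyme by edgeR's quasi-likelihood test at a Benjamini-Hochberg adjusted p under 0.05 over 18940 genes, where 26.7% of all genes tested were called lower. None was called higher, with none at an unadjusted p under 0.05 in that direction by edgeR or DESeq2. The median log2 difference was -6.06, and -5.99 with Lyve1, which had no count in SMG epithelium, held at its limit. Over all genes the median was 0.0. In PG, 32 genes were lower in epithelium (24.2% of all genes) and 1, Gata2, was higher (21.9% of all genes), with a median log2 difference of -4.33 against -0.01 over all genes. Without PG epithelium replicate 2 the counts were again 32 lower (23.8% of all genes) and 1 higher (20.2%), and the median was -5.31. The level of each gene in every library is drawn in the plot of CPM by gene and library.

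**Figure D1:**
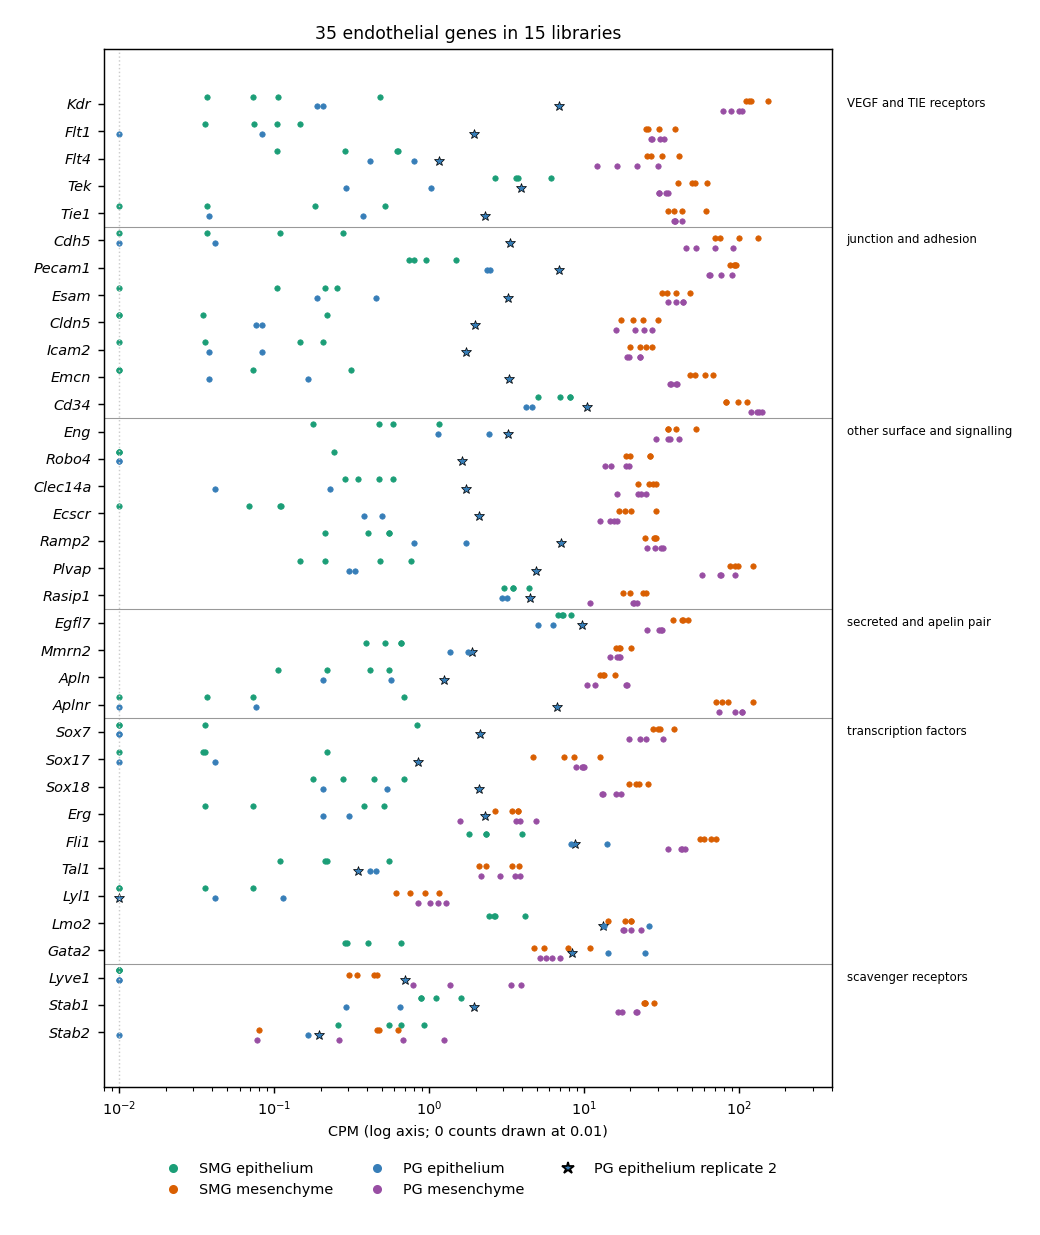
CPM (log axis) of the 35 endothelial genes in 15 libraries, grouped by role; each point is 1 library, colours are the 4 groups and stars are PG epithelium replicate 2. Mesenchyme points lie to the right of epithelium points for most genes, stars lie between them, and Lmo2, Gata2 and Stab2 are the genes whose PG epithelium is not called lower than PG mesenchyme.

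Among the receptors, Kdr (chr5:75932827-75978458, minus strand), the main signalling receptor for VEGF, was at 119, 117, 155 and 112 CPM in SMG mesenchyme and at 105, 88.8, 101 and 79.6 CPM in PG mesenchyme. In SMG epithelium it was at 0.107, 0.486, 0.0732 and 0.0369 CPM, and in PG epithelium at 0.208, 6.95 and 0.191 CPM. The layers did not overlap in either gland, and replicate 2 alone lifted the PG epithelium. The layer difference of Kdr was -9.42 ± 0.99 (SE) on the log2 scale in SMG (adjusted p = 4.51e-06, edgeR) and -5.24 ± 0.84 in PG (adjusted p = 0.000238), or -8.85 without replicate 2. Tie1, an orphan receptor that partners Tek, was at 34.99, 38.0, 61.9 and 43.0 CPM in SMG mesenchyme and 38.4, 38.7, 43.0 and 38.7 CPM in PG mesenchyme, and at 0, 0.520, 0.183 and 0.0369 CPM in SMG epithelium and 0.374, 2.29 and 0.0381 CPM in PG epithelium. All 5 receptors were lower in the epithelium of both glands. Tek, the angiopoietin receptor, was detected in every SMG epithelium library, at 3.75, 6.18, 2.67 and 3.65 CPM, against 0.291, 3.92 and 1.03 CPM in PG epithelium. Its mesenchyme levels were 52.1, 40.5, 50.2 and 62.0 CPM in SMG and 33.9, 30.7, 30.4 and 34.9 CPM in PG.

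All 7 junction and adhesion genes were lower in the epithelium of both glands. Cdh5 (chr8:104101625-104144511, plus strand), encoding VE-cadherin, was at 75.9, 69.8, 133 and 101 CPM in SMG mesenchyme and 70.3, 52.9, 92.1 and 45.9 CPM in PG mesenchyme. In epithelium it was at 0, 0.278, 0.110 and 0.0369 CPM in SMG, and at 0.0416, 3.34 and 0 CPM in PG, where replicate 2 held 86 counts. Its layer difference was -9.72 ± 1.01 in SMG (adjusted p = 4.14e-06, edgeR) and -5.84 ± 0.87 in PG (adjusted p = 0.000137), or -11.37 in PG without replicate 2. PG epithelium replicates 1 and 3 together held 1 Cdh5 count, a ratio of 3302 between mesenchyme and epithelium with a 95% counting interval of 592 to 130400. Pecam1, an adhesion molecule of endothelial cells and platelets, was at 95.1, 87.7, 92.6 and 96.6 CPM in SMG mesenchyme and 65.7, 90.0, 76.5 and 63.9 CPM in PG mesenchyme, with 0.749, 1.49, 0.805 and 0.960 CPM in SMG epithelium and 2.37, 6.91 and 2.48 CPM in PG epithelium. Icam2, an adhesion molecule bound by leukocytes, was lower by -7.85 ± 0.80 in SMG and -5.07 ± 0.73 in PG (adjusted p = 1.74e-06 and 6.68e-05, edgeR), or -8.37 in PG without replicate 2. Replicates 1 and 3 together held 3 Icam2 counts, a ratio of 358 with a 95% counting interval of 122 to 1736. Cldn5, a claudin of endothelial tight junctions, was lower by -8.41 ± 0.91 in SMG and -4.94 ± 0.77 in PG. Without replicate 2 its PG difference was -8.05, with 2 counts in each of replicates 1 and 3. Cd34, a sialomucin of endothelial and blood progenitor cells that mesenchymal cells can also carry, was detected in every epithelium library: 8.13, 8.19, 7.03 and 5.06 CPM in SMG and 4.24, 10.6 and 4.65 CPM in PG. In mesenchyme it was at 99.6, 83.2, 82.7 and 114 CPM in SMG and at 142, 135, 132 and 121 CPM in PG, the only gene of this role whose PG libraries all exceeded the SMG libraries.

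Of the 7 other surface and signalling genes, all were lower in the epithelium of both glands. Plvap, which forms the diaphragms of fenestrated endothelium, was the most abundant of the 35 per kilobase of exon in mesenchyme, at 50.9 CPM per kb in SMG and 38.4 in PG, followed by the apelin receptor Aplnr at 24.2 and 25.7. Per library Plvap was at 88.2, 94.7, 123 and 98.5 CPM in SMG mesenchyme and at 94.7, 58.0, 77.2 and 75.4 CPM in PG mesenchyme. In epithelium it was at 0.214, 0.486, 0.768 and 0.148 CPM in SMG and 0.333, 4.89 and 0.305 CPM in PG. Eng, a co-receptor for transforming growth factor beta ligands, was at 34.9, 39.6, 52.9 and 34.8 CPM in SMG mesenchyme and 35.2, 29.4, 36.2 and 41.1 CPM in PG mesenchyme. Clec14a, a C-type lectin of the endothelial surface, was lower by -5.95 ± 0.57 in SMG and -5.0 ± 0.61 in PG, or -7.27 in PG without replicate 2. Rasip1, a regulator of vessel lumens, differed least between layers within this role, by -2.59 ± 0.23 in SMG and -2.39 ± 0.25 in PG (adjusted p = 1.8e-07 and 2.45e-06, edgeR), or -2.61 in PG without replicate 2. The exons of Rasip1 share bases with 3 neighbours, among them 20.4% with Izumo1 on the same strand, and the treatment of shared bases in the authors' counting is not stated.

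The 4 secreted and apelin genes were lower in the epithelium of both glands. Aplnr was at 78.6, 71.7, 123 and 85.3 CPM in SMG mesenchyme and 105, 74.7, 106 and 95.04 CPM in PG mesenchyme, and at 0, 0.694, 0.0732 and 0.0369 CPM in SMG epithelium and 0, 6.76 and 0.0763 CPM in PG epithelium. Egfl7, a secreted protein of the vessel matrix whose introns host miR-126, retained epithelial reads in every library: 8.31, 7.32, 7.25 and 6.79 CPM in SMG and 6.28, 9.67 and 5.07 CPM in PG. Its layer difference was -2.53 ± 0.17 in SMG and -2.10 ± 0.18 in PG (adjusted p = 9.03e-09 and 4.03e-07, edgeR), the narrowest of the called genes in SMG, and -2.41 in PG without replicate 2. Apln, which encodes the ligand apelin, was lower by -5.40 ± 0.46 in SMG and -4.46 ± 0.48 in PG (adjusted p = 1.27e-07 and 2.92e-06, edgeR), or -5.25 in PG without that library.

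Transcription factors were the role in which the layers were least apart in PG, with a median of -2.92, or -3.69 without replicate 2, against -4.60 in SMG. Sox18, a SOXF factor, was lower in epithelium by -5.81 ± 0.51 in SMG and -3.97 ± 0.52 in PG (adjusted p = 2.29e-07 and 1.91e-05, edgeR), or -5.31 in PG without replicate 2. Sox17, of the same family, was lower by -6.77 ± 0.84 in SMG and -4.97 ± 0.80 in PG, or -8.61 in PG without that library. PG epithelium replicates 1 and 3 together held 1 Sox17 count, a ratio of 483 with a 95% counting interval of 86.5 to 19110. Sox7, the third member, had 2.14 CPM in PG epithelium replicate 2 and no count in replicates 1 and 3, at least 420-fold lower in those 2 libraries than in PG mesenchyme with 3 counts over the pair as the floor. Its mesenchyme levels were 31.01, 28.1, 38.2 and 30.0 CPM in SMG and 25.4, 19.6, 32.5 and 23.02 CPM in PG, and its SMG epithelium levels were 0.0357, 0, 0.842 and 0 CPM. Erg, an ETS factor, passed the test in PG only narrowly (log2 difference -1.90 ± 0.73, adjusted p = 0.0438, edgeR): PG epithelium held 0.208, 2.29 and 0.305 CPM and PG mesenchyme 1.58, 4.93, 3.66 and 3.87 CPM, and replicate 2 lay within the mesenchyme range. Without replicate 2 the difference was -3.76 (adjusted p = 0.000688), while omitting any 1 of 10 other libraries took its adjusted p above 0.05.

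Fli1, Lmo2 and Gata2 departed from the other transcription factors in PG epithelium. Fli1 (chr9:32422204-32542861, minus strand), an ETS factor of endothelial and blood cells, was at 1.82, 2.33, 3.99 and 2.33 CPM in SMG epithelium and at 14.1, 8.81 and 8.24 CPM in PG epithelium, without overlap. In mesenchyme it was at 60.1, 71.1, 56.0 and 66.4 CPM in SMG and 34.8, 45.2, 43.3 and 42.5 CPM in PG. Lmo2 (chr2:103957986-103981878, plus strand), the adaptor that bridges Tal1 and GATA factors on DNA, was at 2.46, 4.16, 2.67 and 2.62 CPM in SMG epithelium and 26.3, 13.3 and 13.5 CPM in PG epithelium. PG epithelium overlapped PG mesenchyme, at 17.98, 20.3, 18.2 and 23.5 CPM, and the layer difference of Lmo2 did not pass the test (-0.17 ± 0.24, adjusted p = 0.588, edgeR, and -0.02 without replicate 2), though it did without PG epithelium replicate 1 (-0.57, adjusted p = 0.0496). SMG mesenchyme held 18.6, 14.3, 20.1 and 20.02 CPM.

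Gata2 (chr6:88193891-88207032, plus strand), a zinc-finger factor that acts in endothelial, blood and several epithelial lineages, was the gene that ran against the set. It was at 0.285, 0.659, 0.403 and 0.295 CPM in SMG epithelium and at 25.01, 8.39 and 14.4 CPM in PG epithelium. Its mesenchyme levels were 5.57, 7.91, 11.0 and 4.75 CPM in SMG and 6.97, 5.67, 5.20 and 6.24 CPM in PG, so that PG epithelium exceeded PG mesenchyme in every library while SMG epithelium lay below SMG mesenchyme in every library. The layer difference was -4.13 ± 0.40 in SMG (adjusted p = 4.54e-07, edgeR) and 1.40 ± 0.35 in PG (adjusted p = 0.00356), or 1.70 without replicate 2. The 2 differences were themselves different by 5.53 ± 0.53 (adjusted p = 8.61e-06).

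**Figure D2:**
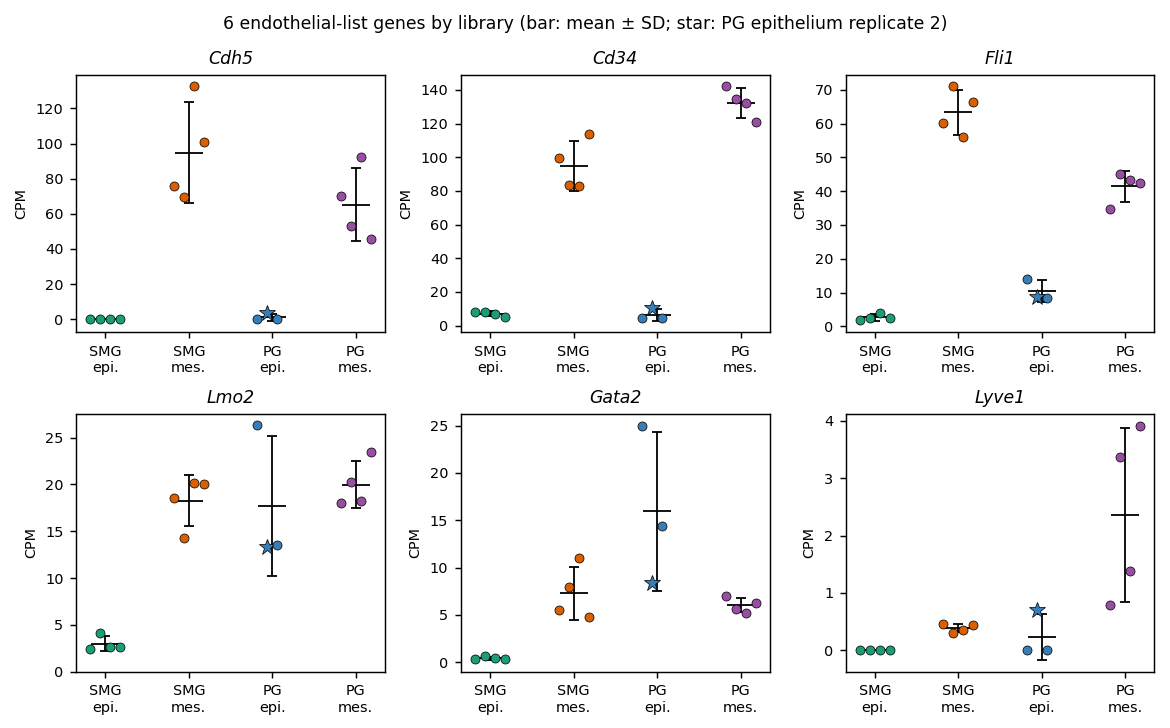
CPM (linear axis from about 0) of 6 genes in the 4 groups; points are libraries, stars are PG epithelium replicate 2, and bars are the mean ± SD. Cdh5 and Cd34 are low in both epithelia, while PG epithelium of Fli1, Lmo2 and Gata2 exceeds SMG epithelium in every library and Gata2 exceeds both mesenchymes in PG epithelium replicates 1 and 3.

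Of the 3 scavenger receptors, 2 were lower in the epithelium of both glands. Lyve1 (chr7:110850607-110863239, minus strand), a hyaluronan receptor of lymphatic vessels and of some macrophages, had no count in the 4 SMG epithelium libraries, at least 14.4-fold lower than SMG mesenchyme with 3 counts over the group as the floor. In PG epithelium it was at 0, 0.699 and 0 CPM. Stab1, a clearance receptor of sinusoidal endothelium and macrophages, was at 24.4, 24.99, 28.5 and 24.8 CPM in SMG mesenchyme and 17.7, 16.7, 21.97 and 21.6 CPM in PG mesenchyme, and at 0.892, 1.11, 1.61 and 0.886 CPM in SMG epithelium and 0.291, 1.94 and 0.648 CPM in PG epithelium. Stab2, its paralog, had its highest level at 1.25 CPM in PG mesenchyme replicate 3. It was at 0.927, 0.659, 0.549 and 0.258 CPM in SMG epithelium, 0.628, 0.461, 0.474 and 0.0806 CPM in SMG mesenchyme, 0.166, 0.194 and 0 CPM in PG epithelium and 0.263, 0.0777, 1.25 and 0.677 CPM in PG mesenchyme. Its groups overlapped within each gland, and neither layer difference passed the test (adjusted p = 0.569 in SMG and 0.0691 in PG, edgeR). The PG difference of -2.20 ± 0.94 passed without PG mesenchyme replicate 2 (adjusted p = 0.0267) and by DESeq2 (adjusted p = 0.0458).

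PG epithelium replicate 2 carried more of the set than its 2 fellow libraries. It was the highest of the 3 for 30 of the 35 genes, and the sum of the 35 was 133 CPM there against 91.8 and 61.1 CPM in replicates 1 and 3. Expressed as a share of the PG mesenchyme mean, the median gene stood at 9.09% in replicate 2, 1.39% in replicate 1 and 2.70% in replicate 3. Only 1 gene was under 5% in replicate 2, against 24 in replicate 1 and 26 in replicate 3, and 25 genes lay between 5 and 15%. Cdh5 was at 5.12% in replicate 2 and at 0.0637 and 0% in the others, and Kdr was at 7.44% against 0.223 and 0.204%. The 5 genes not highest in replicate 2 were the transcription factors Fli1, Tal1, Lyl1, Lmo2 and Gata2: Gata2 was at 415, 139 and 239% in replicates 1, 2 and 3, Lmo2 at 132, 66.4 and 67.7%, and Fli1 at 33.9, 21.3 and 19.9%.

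Other cell markers moved with replicate 2 as well. The summed 19 macrophage markers stood at 18.8% of PG mesenchyme there, against 6.08 and 4.49% in replicates 1 and 3, and the median of the 9 neuron and Schwann precursor markers, of 12, that had at least 1 CPM in PG mesenchyme was 218% against 6.63 and 18.8%. The sum of all 12 was 67.2% there against 41.3 and 26.4%. The summed 20 mesenchymal markers stood at 6.39% against 3.33 and 3.99%. Summed erythroid markers moved the other way, at 7.22% against 41.5 and 10.5%. The part of these cells in the replicate 2 values of the endothelial genes was not tested. In SMG epithelium the median endothelial gene was at 0.773, 1.23, 1.98 and 1.18% of SMG mesenchyme in the 4 libraries, beside mesenchymal marker medians of 0.721, 0.898, 4.57 and 0.711%.

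**Figure D3:**
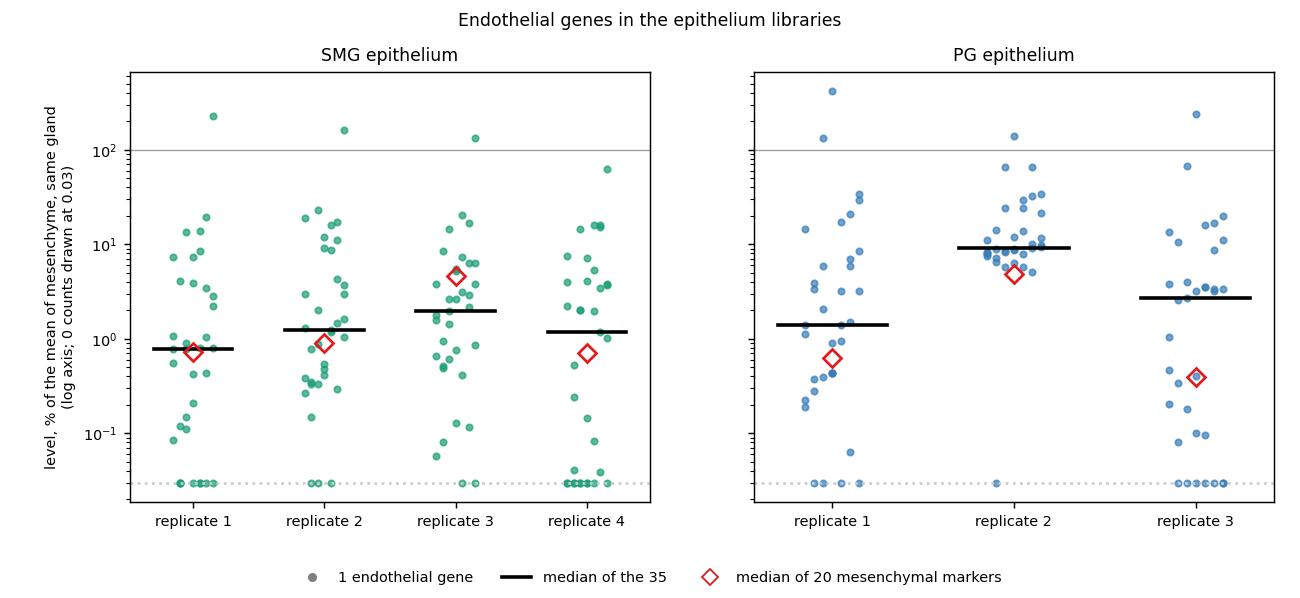
Level of each of the 35 genes in each epithelium library as a percentage of the mesenchyme mean of the same gland (log axis), with the median of the 35 (bar) and of 20 mesenchymal markers (diamond). In PG epithelium replicate 2 the median is 9.09% and all but 1 gene lie above 5%, while replicates 1 and 3 have medians of 1.39 and 2.70%.

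Between the epithelia, 9 of the 35 genes were higher in PG and none was lower at adjusted p under 0.05, where 7.07% of all genes were called higher and 4.66% lower (edgeR). Tek and Stab2 were lower at an unadjusted p under 0.05 by edgeR and by DESeq2, which also called 0 lower after adjustment. The 9 were Pecam1, Esam, Eng, Ecscr, Ramp2, Mmrn2, Fli1, Lmo2 and Gata2. The median log2 difference of the set was 1.99 against 0.0 over all genes. Without replicate 2 the median fell to 0.03 (0.05 with the 3 genes at 0 counts held at their limits), 8 genes remained higher (5.89% of all genes), Esam no longer passed, and Tek, Cd34 and Stab1 were called lower (4.05% of all genes). The mesenchymal markers, counted in the same contrast, gave 5 higher and 1 lower of 20 with replicate 2 and 2 higher and 1 lower without it.

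Gata2 was higher in PG epithelium by 5.26 ± 0.42 on the log2 scale (adjusted p = 1.6e-06, edgeR), with a mean of 15.9 ± 8.41 CPM (SD, n = 3) against 0.411 ± 0.174 (SD, n = 4), and by 5.58 without replicate 2. Lmo2 was higher by 2.57 ± 0.25 (adjusted p = 8.59e-06), and Fli1 by 1.99 ± 0.23 (adjusted p = 4.07e-05). Without replicate 2 the differences were 2.76 for Lmo2 and 2.11 for Fli1. Blood markers differed among the same libraries: summed erythroid markers were at 2464, 428 and 620 CPM in PG epithelium replicates 1, 2 and 3, and PG mesenchyme held 2362 to 9618 CPM of them with 5.20 to 6.97 CPM of Gata2. Of 10 megakaryocyte and platelet markers, 1 was higher in PG than in SMG epithelium, or 0 without replicate 2, and 0 were lower. Of 7 blood progenitor markers tested, 0 were higher and 2 lower (7.07% and 4.66% of all genes). Between layers, all 10 platelet markers were lower in the epithelium of each gland. Of the progenitor markers, 4 were higher in each epithelium, with 2 lower in SMG and 3 lower in PG. The part of blood cells in the Gata2 values was not tested.

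Mmrn2, a matrix protein of the endothelium, was at 0.392, 0.520, 0.659 and 0.664 CPM in SMG epithelium and 1.37, 1.90 and 1.79 CPM in PG epithelium. It did not overlap between the glands, rose by 1.59 ± 0.20 (adjusted p = 8.5e-05, edgeR) and by 1.51 without replicate 2. Pecam1 rose by 1.96 ± 0.35 (adjusted p = 0.0017), and by 1.28 without replicate 2. Ecscr, a small endothelial membrane protein, was at 0, 0.0694, 0.110 and 0.111 CPM in SMG epithelium and at 0.499, 2.10 and 0.381 CPM in PG epithelium. Ramp2, which encodes a subunit of the adrenomedullin receptor, was at 0.214, 0.555, 0.403 and 0.554 CPM in SMG epithelium and 1.75, 7.11 and 0.801 CPM in PG epithelium. The Ecscr difference was 3.70 ± 0.66 (adjusted p = 0.00163, edgeR), or 2.54 without replicate 2, and the Ramp2 difference 2.89 ± 0.56 (adjusted p = 0.0037), or 1.56 without it. In mesenchyme Mmrn2 was at 17.2, 16.1, 20.1 and 16.8 CPM in SMG and 16.5, 17.1, 16.9 and 14.8 CPM in PG, with overlap. Ecscr was there at 18.4, 16.9, 20.03 and 29.1 CPM in SMG and 12.8, 16.5, 14.8 and 15.7 CPM in PG, where all 4 PG libraries lay below all 4 SMG libraries. Mesenchyme levels of Ramp2 were 28.2, 24.9, 28.6 and 29.3 CPM in SMG and 25.6, 32.6, 31.4 and 28.9 CPM in PG, with overlap. Vps25 shares 33.4% of the Ramp2 exon bases on the same strand.

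Eng was at 0.178, 0.590, 1.17 and 0.480 CPM in SMG epithelium and at 2.46, 3.22 and 1.14 CPM in PG epithelium, with overlap between replicate 3 of each gland. It rose by 1.90 ± 0.42 (adjusted p = 0.00749, edgeR) and by 1.58 without PG replicate 2, and did not pass when only the epithelium groups were fitted (1.91, adjusted p = 0.0562). Esam, an adhesion molecule of tight junctions, was at 0.214, 0.104, 0.256 and 0 CPM in SMG epithelium and at 0.458, 3.26 and 0.191 CPM in PG epithelium. Its mesenchyme levels, 34.3, 39.5, 48.3 and 31.99 CPM in SMG and 39.5, 43.7, 43.6 and 34.8 CPM in PG, overlapped. Esam differed by 3.14 ± 0.85 (adjusted p = 0.0285, edgeR) with PG replicate 2 and by 1.14 (adjusted p = 0.293) without it. The call also ended without SMG epithelium replicate 1, 2 or 4 (3.39, 3.02 and 2.77, adjusted p = 0.055, 0.0772 and 0.0683), with no filter on low counts (adjusted p = 0.0825) and with a replicate block (adjusted p = 0.0804).

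Kdr and Cdh5 did not pass the test between the epithelia, and their values rested on replicate 2. Kdr differed between the epithelia by 3.74 ± 1.14 (adjusted p = 0.0536, edgeR), or 0.16 without replicate 2, and Cdh5 by 3.34 ± 1.35 (adjusted p = 0.142), or -2.16 without it. Leaving out PG replicate 1 or 3 instead, which gives replicate 2 more weight, brought 18 and 17 of the 35 genes past the threshold, all higher, where 7.39 and 6.08% of all genes were called higher. Tek was lower in PG epithelium by -1.21 ± 0.52 (adjusted p = 0.165) with replicate 2 and by -2.57 (adjusted p = 0.000872) without it. Cd34 and Stab1 moved from -0.13 and -0.22 to -0.66 and -1.22 (adjusted p = 0.0397 and 0.0288, edgeR).

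The test of the difference between the 2 layer differences called 8 genes, each with a smaller epithelial deficit, or a reversed one, in PG (5.97% of all genes were called in that direction): Pecam1, Eng, Ecscr, Ramp2, Mmrn2, Fli1, Lmo2 and Gata2. None was called in the other direction by edgeR or DESeq2, in which 8.32% of all genes were called by edgeR and where only Stab2 was at an unadjusted p under 0.05 by each tool. The median of the 35 was 2.29, or 2.10 with Lyve1 at its limit, against -0.02 over all genes, and 0.18 without replicate 2 (0.27 with the 3 genes at 0 counts at their limits). All 8 kept their call without replicate 2, where 5.45% of all genes were called higher, and Tek and Cd34 were added in the other direction (7.92% of all genes). Omitting PG epithelium replicate 1 or 3 instead gave 16 and 17 calls, all in the first direction, where 6.22 and 5.39% of all genes were called. With no filter on low counts Ramp2 did not pass (2.82, adjusted p = 0.0518). For the remaining genes the difference between glands did not pass the test, as for Kdr (4.17 ± 1.30, adjusted p = 0.0514) and Cdh5 (3.88 ± 1.47, adjusted p = 0.106), or 0.59 and -1.63 without replicate 2.

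Between the mesenchymes the number of genes called depended on the libraries in the fit. With all 15 libraries, 3 of the 35 passed the test: Egfl7 and Fli1 were lower in PG (9.43% of all genes were called lower) and Lyve1 was higher (15.3% of all genes), a share of 8.57% against 24.7% of all genes called. The spread in this test was estimated over all 4 groups, PG epithelium replicate 2 included. The share called is therefore not a measure of the mesenchyme libraries alone. The median log2 difference was -0.19 against 0.02 over all genes, and the median absolute difference 0.30 against 0.29. Without regard to the test, 8 genes were lower in every PG library than in every SMG library (10.5% of all genes) and 2, Cd34 and Lyve1, were higher in every one (15.8%). The spread between libraries was modest for most genes: the median coefficient of variation was 15.9% in SMG mesenchyme and 13.8% in PG mesenchyme.

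Egfl7 was at 47.1, 37.7, 43.3 and 43.8 CPM in SMG mesenchyme and 30.8, 25.7, 31.7 and 31.8 CPM in PG mesenchyme, and fell by 0.52 ± 0.16 on the log2 scale (adjusted p = 0.0227, edgeR). Fli1 fell by 0.61 ± 0.19 (adjusted p = 0.0305). Neither gene overlapped between the glands. Lyve1 rose by 2.59 ± 0.84 (adjusted p = 0.0423), from 0.460, 0.307, 0.345 and 0.443 CPM in SMG to 0.789, 3.38, 1.37 and 3.92 CPM in PG. Epithelial markers stood at 16.1, 3.67, 2.76 and 4.47% of the PG epithelium mean in the same PG libraries. The part of epithelium in the Lyve1 values was not tested. Summed macrophage markers were at 67.0 to 112 CPM in SMG and 135 to 161 CPM in PG mesenchyme. Of the 18 tested, 2 were called higher, where 15.3% of all genes were: Mrc1 (1.24 ± 0.37, adjusted p = 0.021, edgeR) and Ptprc (1.96 ± 0.51, adjusted p = 0.00975). The part of macrophages in the Lyve1 difference was not tested.

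These mesenchyme calls were fragile. Leaving out 1 library gave 0 to 4 calls, with none left when SMG mesenchyme replicate 1 was omitted and 1 left when SMG mesenchyme replicate 2 or 4 or PG mesenchyme replicate 2 or 4 was. The fit of the 2 mesenchyme groups alone called 10 genes, 8 lower and 2 higher, where 10.6 and 14.6% of all genes were called. It kept the 3 calls and added Kdr, Tek, Pecam1, Emcn, Sox18 and Stab1 as lower and Cd34 as higher. Cd34 in mesenchyme differed by 0.48 ± 0.22 (adjusted p = 0.135, edgeR) with all libraries and passed without PG epithelium replicate 2 (adjusted p = 0.0146). Kdr, Cdh5, Tek, Pecam1 and Emcn had differences of -0.43 ± 0.59, -0.54 ± 0.58, -0.66 ± 0.41, -0.33 ± 0.25 and -0.59 ± 0.56 with all libraries, none past the threshold. Of these, Kdr, Tek, Pecam1 and Emcn passed when only the mesenchyme groups were fitted (adjusted p = 0.0185, 0.00281, 0.0411 and 0.00263, edgeR). Without PG epithelium replicate 2 the same 5 differences had SE of 0.20, 0.27, 0.23, 0.14 and 0.25, in the order Kdr, Cdh5, Tek, Pecam1 and Emcn, and none passed.

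**Figure D4:**
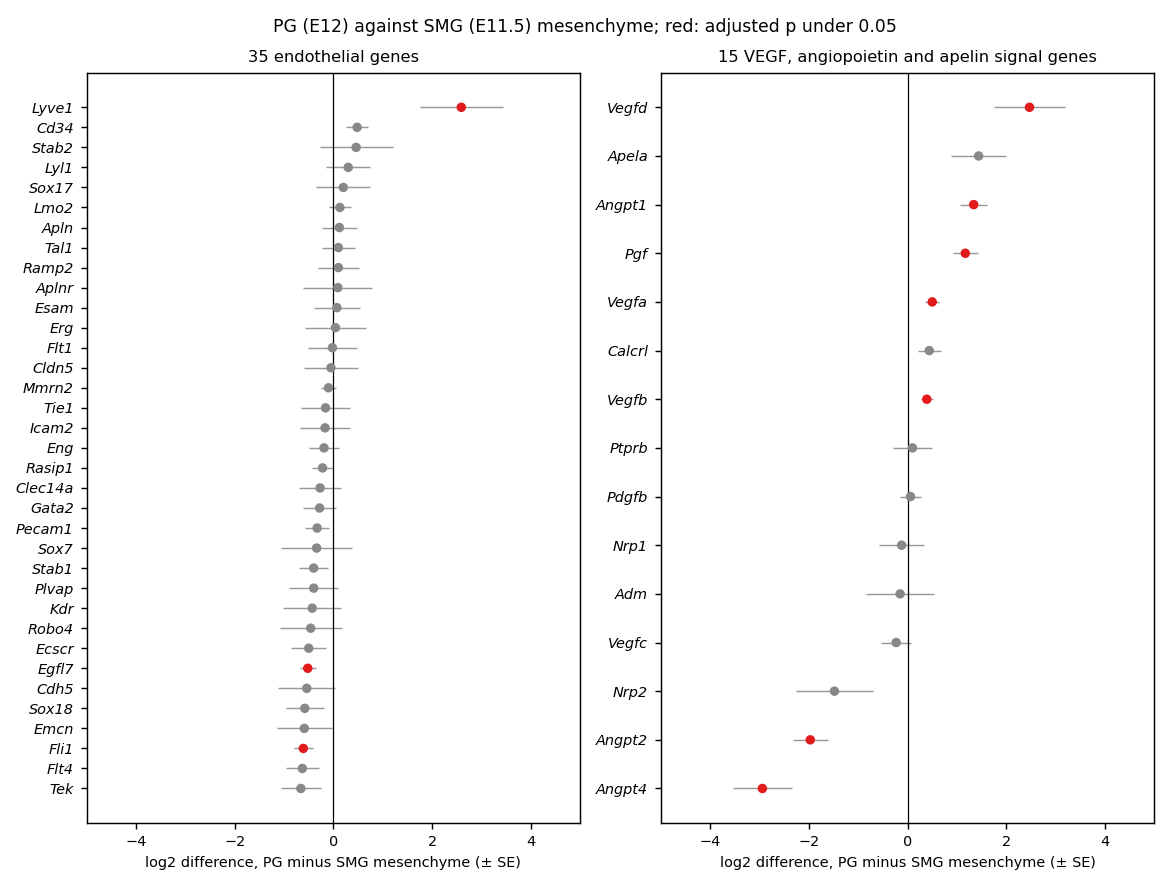
Log2 difference ± SE of PG minus SMG mesenchyme for the 35 endothelial genes (left) and 15 VEGF, angiopoietin and apelin signal genes (right), red where the adjusted p was under 0.05. Of the left-hand genes, 3 are called, and of the right-hand genes, 7.

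Growth factors that act on these and related receptors were read in the same contrast, in a list that also held Nrp1, Nrp2, Calcrl and Ptprb, which are not growth factors. Of 15 signal genes, 5 were higher in PG mesenchyme and 2 lower (15.3% and 9.43% of all genes). Angpt1, the activating ligand of Tek, was at 18.2 CPM in SMG and 46.2 CPM in PG mesenchyme and rose by 1.34 ± 0.27 (adjusted p = 0.00166, edgeR). Angpt2, its context-dependent antagonist, named after its values were seen, fell by 1.97 ± 0.35 (adjusted p = 0.000623), from 4.78 to 1.21 CPM. Pgf, a ligand of Flt1, rose by 1.17 ± 0.25 (adjusted p = 0.00266), and Vegfa, the main ligand of Kdr, by 0.50 ± 0.14 (adjusted p = 0.0177). Vegfb and Vegfd were also higher and Angpt4 lower. Tek itself was lower in every PG than in every SMG mesenchyme library; it did not pass the test with all 15 libraries (-0.66, adjusted p = 0.282) and passed when only the mesenchyme groups were fitted (-0.68, adjusted p = 0.00281).

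Vessel-type and wall genes were read in the same contrast. Of 13 arterial and Notch genes, 4 were higher in PG mesenchyme and 1 lower (15.3% and 9.43% of all genes). Hey2, a Notch target, rose by 4.08 ± 0.69 (adjusted p = 0.000511, edgeR) and Jag1, a Notch ligand, by 1.94 ± 0.19 (adjusted p = 4.76e-06). Gja5, a gap junction protein of arterial endothelium, rose by 1.75 ± 0.32 (adjusted p = 0.000874), with Hey1 also higher. Not called were Dll4, Gja4, Notch1, Cxcr4 and Bmx (0.21, 0.46, 0.41, 0.74 and 1.56) and Notch4, Unc5b and Acvrl1 (-0.48, -0.34 and -0.36). Efnb2 fell by 0.58 ± 0.20 (adjusted p = 0.0437) and did not pass without PG epithelium replicate 2 (adjusted p = 0.0526). Jag1 and Hey1 were more abundant in epithelium than in mesenchyme, and epithelial markers were higher in PG than in SMG mesenchyme for 20 of 22. Gja5 was low in epithelium (1.10 CPM in SMG and 2.47 CPM in PG) and at 15.1 CPM in SMG and 50.9 CPM in PG mesenchyme. The part of epithelium in the Jag1, Hey1 and Gja5 differences was not tested. Of 8 venous and lymphatic genes, 2 were lower (Ccl21a and Reln, 9.43% of all genes) and 1 higher (Itga9, 15.3% of all genes). Of 11 mural cell genes tested, Acta2 (3.12 ± 0.63) and Tagln (2.01 ± 0.37) were higher and Abcc9 (-1.07 ± 0.32) lower, against the same shares of all genes. Skeletal muscle markers were higher for 10 of 10 (15.3% of all genes), with mean sums of 123 CPM in SMG and 1675 CPM in PG mesenchyme. The part of muscle in the Acta2 and Tagln differences was not tested.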

How the data were processed

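Total RNA (RNA integrity above 8.7 per the labels' protocols) was extracted with TRIzol, converted to full-length cDNA with SMART-Seq v4, made into libraries with Nextera XT and read on a HiSeq instrument. The deposited values used here are raw counts per gene, 1 column per library, over 48709 genes and 92 spike-in rows left out of all fits. The submitters' processing notes list 2 builds, mm10 and GRCm38.p3, and as tools limma, edgeR, DESeq2 and STAR 2.5.2a. No source used here states what counted the reads, with which annotation or whether by strand. Of the 35 genes, 10 share exon bases with a neighbour, 9 of them on the opposite strand, and their reads may be split. The authors' deposited CPM table was not used.

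From the counts, edgeR 4.0.16 (R 4.3.3) was fitted with TMM factors, filterByExpr by group, robust quasi-likelihood dispersions and 1 mean per group over all 15 libraries. The threshold was a Benjamini-Hochberg adjusted p under 0.05 over 18940 genes, and all 35 genes were tested. SE is the log2 difference divided by the square root of F. Alternatives were DESeq2 1.42.0, median-ratio size factors, no filter on low counts, a replicate block, each library left out in turn, the libraries of PG epithelium 2 and PG mesenchyme 1 omitted together, and only the groups compared. The fit was tested on simulated data. No 2 libraries of a group agreed within sampling noise.

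The 35 genes and the marker lists were chosen with earlier results of these data known. All 35 genes are named. Values in every library are given for the 2 genes of each role with the highest mesenchyme mean, for genes called between glands or not called lower in both epithelia, and, added after their values were seen, for Cdh5, Tek and Erg. From the marker lists, counts of called genes or summed levels are given, not in every comparison, with up to 3 called genes of at least 5 CPM by size of change. The correlation used log2(CPM + 0.1). Counting intervals and floors (3 counts, 95% exact) cover counting error only.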

Additional observations from a re-analysis of the deposited data

Results flagged for a closer look

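Within groups of 4 libraries, 10 of 104 gene and group combinations had 1 library far from the other 3 by Dixon's gap test. For normally distributed values chance gives about 1 in 20, a rate that does not hold for counts near 0. Of the 10 combinations, 7 were in SMG epithelium, with counts such as 0, 7, 0 and 0 for Robo4 and 1, 0, 23 and 0 for Sox7. Replicate 2 was the high library for Kdr (0.486 CPM), Robo4 (0.243 CPM), Aplnr (0.694 CPM) and Lmo2 (4.16 CPM). Replicate 3 was the high library for Sox7 (0.842 CPM), Cldn5 (0.220 CPM) and Sox17 (0.220 CPM). SMG mesenchyme replicate 3 was high for Stab1 (28.5 CPM), PG mesenchyme replicate 3 was high for Tie1 (43.0 CPM), and PG mesenchyme replicate 2 was low for Rasip1 (10.9 CPM). The 3 PG epithelium libraries are too few for that test.

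The layer difference (epithelium minus mesenchyme) differed between PG and SMG by the interaction test of edgeR, adjusted p under 0.05, for 8 genes. The log2 difference of the differences was 2.29 for Pecam1, 2.10 for Eng, 4.20 for Ecscr, 2.79 for Ramp2, 1.70 for Mmrn2, 2.60 for Fli1, 2.44 for Lmo2 and 5.53 for Gata2. Without PG epithelium replicate 2 these were 1.61, 1.77, 3.04, 1.46, 1.62, 2.72, 2.62 and 5.86.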

How the results depend on the processing

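The number of the 35 genes called between layers ranged from 34 to 34 in SMG and from 32 to 33 in PG with each library left out in turn. Between the epithelia it ranged from 8 to 18, between the mesenchymes from 0 to 4, and for the difference of layer differences from 8 to 17. The mesenchyme count was 1 with the replicate block and 10 when only those groups were fitted. Same-numbered libraries did not correlate above 0.1 between glands or within PG, and a pairing within SMG was not settled. Of 21 same-numbered pairs, 3 correlated above 0.1 (range -0.124 to 0.283). All were among the 4 pairs of SMG epithelium with SMG mesenchyme (0.014 to 0.283). Of the 15 libraries, 9 correlated best with their own number. The SMG layer count was 34 with the block. Under the block, Esam between epithelia and Fli1 and Lyve1 between mesenchymes no longer passed, and Flt4 was added to the difference of layer differences. DESeq2 called 31, 31, 13, 3 and 11 genes in the 5 comparisons, giving Kdr, Flt1 and Aplnr no adjusted p. Between the epithelia, Cdh5 reversed to -2.16 without PG epithelium replicate 2 (range 4.42 to -2.16 over the omissions of 1 library) and to -2.17 without that library and PG mesenchyme replicate 1. Cd34 reversed to 0.12 and 0.08 without PG epithelium replicate 1 and 3 (range -0.66 to 0.12), and Stab1 to 0.22 and 0.02, and to 0.00 without SMG epithelium replicate 3 (range -1.22 to 0.22). The Cdh5 difference of layer differences reversed to -1.63 without PG epithelium replicate 2 (range -1.63 to 4.95) and to -1.59 without both libraries. The cause was not tested. Between PG layers Erg lost its call under 12 alternatives, its adjusted p ranging up to 0.148, and Lyve1 under 1. Fitting only the epithelium groups gave 7 calls among 22 genes tested. Eng was tested there and did not pass, and Esam was not among the genes tested. With no filter on low counts Ramp2 lost its difference of layer differences, leaving 7. Counts limit the least abundant genes: Lyl1 had 3 counts and Lyve1 0 over the 4 SMG epithelium libraries.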

Other observations

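Genes outside the set that followed Cdh5 most closely were sought among those with a mean of at least 5 CPM in mesenchyme. By Pearson r of log2 CPM over 15 libraries, which share tissue layer as the main source of spread, the 8 nearest were Tmem255a (0.995), Pmp22 (0.994), Myct1 (0.994), Nos3 (0.993), Cd93 (0.993), Mmrn1 (0.993), Mfng (0.991) and Sh3tc1 (0.991). Over the 8 mesenchyme libraries alone, r was 0.88 for Myct1 and 0.19 for Nos3. In PG epithelium Cd93 was at 0.166, 2.29 and 0 CPM and Myct1 at 0, 0.777 and 0 CPM in replicates 1, 2 and 3, with the highest value in replicate 2 as for Cdh5. These libraries were among the 15 used to choose the genes, so this likeness follows in part from the choice.

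Among 26 further endothelial genes tested, 24 were lower and 1 higher in SMG epithelium than in SMG mesenchyme (26.7% and 25.2% of all genes). In PG epithelium 23 were lower and 1 higher than in PG mesenchyme (24.2% and 21.9% of all genes). Without PG epithelium replicate 2 the PG counts were 22 and 0 (23.8% and 20.2% of all genes). Between the epithelia, 4 were higher in PG and 1 lower (7.07% and 4.66% of all genes), or 4 and 2 without PG epithelium replicate 2. Ets1, an ETS factor, was at 5.91 ± 3.71 CPM (SD, n = 4) in SMG epithelium and 27.3 ± 13.6 CPM (SD, n = 3) in PG epithelium, higher by 2.21 ± 0.40 on the log2 scale (adjusted p = 0.00267, edgeR) and by 2.47 without replicate 2. Elk3, another ETS factor, was higher by 0.64 ± 0.15 (adjusted p = 0.0084) and by 0.76 without it. Between the mesenchymes 1 of the 26 was higher in PG and 2 were lower (15.3% and 9.43% of all genes). Elk3 was lower there by -0.53 ± 0.13 (adjusted p = 0.00877), from 112.9 to 78.2 CPM. Vwf, a clotting protein of endothelial cells and platelets, was higher in PG by 1.21 ± 0.36 (adjusted p = 0.0206), from 5.91 to 13.7 CPM, and Gngt2 was lower by -1.08 ± 0.36 (adjusted p = 0.0404).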
